A study of Arabidopsis thaliana with 4 samples.

Results

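Metallothioneins are small cysteine-rich proteins that hold copper, zinc and other metal ions through the sulphur atoms of their cysteines. The genes described here were MT1A (AT1G07600), MT1C (AT1G07610), MT2A (AT3G09390), MT2B (AT5G02380) and MT3 (AT3G15353) of *Arabidopsis thaliana*. They were chosen by identifier, with earlier results of these data known. They were 5 of the 22409 reference genes in the deposited table of expression, and all 5 were listed with reads in every library. The plants were wild-type Columbia (Col-0), grown at 23/18 °C with a 16/8 light/dark cycle. Aboveground parts were taken when rosette growth was complete, and each replicate pooled several plants. The values came from 3 ONT Pc libraries, CK1, CK2 and CK3, in which cDNA was amplified by PCR and read on a Nanopore PromethION, and 1 PacBio library added a list of isoforms by protein family. No mutant, treatment or second stage was included. The question the data could answer was what share of the reads each metallothionein had and how far the 3 libraries differed.

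Plant metallothioneins are grouped into types by the arrangement of their cysteines. In *Arabidopsis*, MT1A and MT2B are known chiefly from the phloem, MT2A and MT3 chiefly from leaf mesophyll, and the MT4 genes from seeds. The proteins are known for copper tolerance and for the storage and movement of copper, particularly in ageing leaves. Because whole aboveground parts were used, fewer cells of a type and less RNA per cell cannot be told apart in any value below.

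The coding sequences show what the type names stand for. They were read from the RefSeq annotation of TAIR10.1, on the strand of the gene and 5′ to 3′, with each cysteine codon in capitals.
MT3: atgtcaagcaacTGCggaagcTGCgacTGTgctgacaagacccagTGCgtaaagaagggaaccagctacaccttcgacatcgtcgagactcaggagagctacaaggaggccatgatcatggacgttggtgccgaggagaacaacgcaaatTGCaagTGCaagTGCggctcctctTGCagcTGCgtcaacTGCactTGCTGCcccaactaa
MT2B: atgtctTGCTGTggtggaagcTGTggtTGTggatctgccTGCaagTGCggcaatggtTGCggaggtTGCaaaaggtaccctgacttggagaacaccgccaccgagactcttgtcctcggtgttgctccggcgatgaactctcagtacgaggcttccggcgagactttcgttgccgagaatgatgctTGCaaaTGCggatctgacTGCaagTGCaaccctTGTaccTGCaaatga
MT2A: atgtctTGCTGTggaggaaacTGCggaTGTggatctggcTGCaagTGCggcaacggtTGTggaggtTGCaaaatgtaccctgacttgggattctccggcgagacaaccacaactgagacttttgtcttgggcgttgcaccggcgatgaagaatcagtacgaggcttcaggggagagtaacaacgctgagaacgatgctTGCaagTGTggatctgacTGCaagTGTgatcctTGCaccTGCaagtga
MT1A: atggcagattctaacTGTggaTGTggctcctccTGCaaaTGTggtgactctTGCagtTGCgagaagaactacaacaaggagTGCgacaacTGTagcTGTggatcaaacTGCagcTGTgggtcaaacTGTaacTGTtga
MT1C: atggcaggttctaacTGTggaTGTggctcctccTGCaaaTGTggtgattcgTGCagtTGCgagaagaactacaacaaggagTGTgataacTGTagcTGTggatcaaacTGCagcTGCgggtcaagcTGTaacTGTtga
MT3 has 12 cysteine codons among 69, MT2B 14 among 77 and MT2A 14 among 81, counted without the stop codon. In these 3 genes the capitals fall into a cluster at each end, and the longest stretch without a cysteine codon was 34 codons in MT3, 39 in MT2B and 43 in MT2A. MT1A and MT1C have 13 cysteine codons among 45, or 28.9%, and no stretch between cysteine codons was longer than 7 codons.

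**Figure D1:**
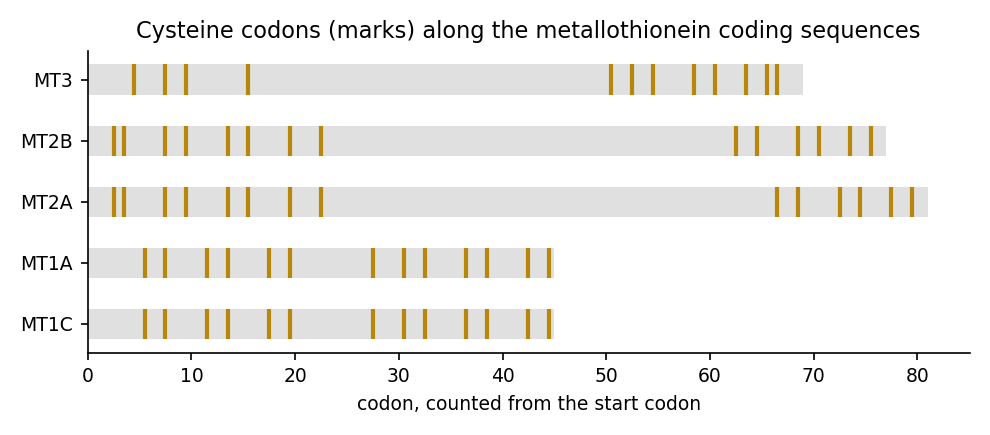
Position of each cysteine codon (vertical marks) along the coding sequence of the 5 metallothionein genes, in codons from the start. MT3, MT2B and MT2A carry a cluster at each end with 34 to 43 codons between, whereas the marks of MT1A and MT1C are spread along 45 codons.

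Identity between coding sequences was 94.9% over 138 aligned bases for MT1A and MT1C and 79.7% over 246 for MT2A and MT2B. MT3 had 53.9% identity to MT2B and 44.1% to MT1A. The longest stretch shared without a mismatch by the annotated transcripts was 39 bases for MT1A and MT1C and 17 bases for MT2A and MT2B. Because of such shared stretches the division of reads between MT1A and MT1C is uncertain, and it was not tested.

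The values are in CPM, the reads of a gene out of each 1000000 reads, rescaled to the library's own reads. CK1 held 8122432 reads, CK2 held 7386184 and CK3 held 6835029. The cDNA was amplified by PCR and carried no molecular identifiers, so every interval below covers counting error only. The SD over libraries is the spread between libraries. Each library came from its own pool, so differences between plants and differences from library preparation or sequencing cannot be told apart. The labels do not say that the pools were grown separately. Among 18449 reference genes with at least 10 reads in all, 1919 (10.4%) differed by at least 2-fold between the highest and the lowest library, and CK3 was the highest library in 854 of these (4.63% of the genes tested). The tissue carried the markers of its label. The 4 leaf mesophyll markers summed to 51021 to 59703 CPM per library, and 4 phloem markers to 257 to 278 CPM. Of 5 seed markers 3 were listed, at a sum of at most 0.271 CPM, with EM6 at 0, and 2 of 4 root markers were listed, at a sum of at most 0.948 CPM. The 3 flower markers summed to 0.585 to 2.03 CPM, and the 3 trichome markers to 3.80 to 6.36 CPM.

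The 5 metallothioneins took 0.809% of all reads in CK1, 0.806% in CK2 and 0.935% in CK3, or 0.850% ± 0.0734 (SD, n = 3). Counted as 1 gene, they would have ranked 9 among the reference genes, which were each taken singly, with no other family summed. Almost all of this came from the type 2 and type 3 genes, since MT1A and MT1C together had 34.1 CPM in CK1, 50.2 CPM in CK2 and 42.4 CPM in CK3.

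MT3 was the most abundant member. It had 3849 CPM in CK1, 3970 CPM in CK2 and 4047 CPM in CK3, or 3955 ± 99.6 CPM (SD, n = 3), and ranked 30 of 22409 genes by its mean. The 3 values lay within 1.05-fold, a log2 spread of 0.07 against a median of 0.41 over genes with at least 10 reads. A narrower spread was found in 2.65% of those genes and in 5.42% of the genes averaging at least 100 CPM. The gene lies on the minus strand of chromosome 3, at chr3:5180642-5181586 of TAIR10.1, with 3 exons and a longest annotated transcript of 648 bases. Its model overlaps COX17, which encodes a copper chaperone for cytochrome c oxidase on the opposite strand, by 24 bases, and the table does not state whether strand was used in counting. COX17 itself stood at 26.0, 25.5 and 26.3 CPM in CK1, CK2 and CK3, far below MT3. An opposite-strand long non-coding RNA, AT3G03105, overlaps MT3 by 278 bases and is not listed in the table.

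MT2B was next by mean. It had 3044 CPM in CK1, 2427 CPM in CK2 and 2560 CPM in CK3, or 2677 ± 325 CPM (SD, n = 3), rank 46. CK1 was the high library, and CK2 and CK3 were close to each other. The log2 spread of 0.33 lay near the median of 0.32 for the 1403 reference genes that averaged at least 100 CPM. MT2B lies at chr5:506498-507244 on the minus strand, with 2 exons and a transcript of 571 bases, and overlaps no annotated gene.

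MT2A varied most. It had 1162 CPM in CK1, 1614 CPM in CK2 and 2697 CPM in CK3, or 1825 ± 789 CPM (SD, n = 3), rank 62. The coefficient of variation was 43.2%, against 2.52% for MT3 and 12.1% for MT2B. The values rested on 9442, 11922 and 18437 reads. Their exact 95% intervals (1139 to 1186, 1585 to 1643 and 2659 to 2737 CPM) did not overlap, so the difference between libraries was larger than counting error. MT2A lies at chr3:2889406-2890574 on the minus strand, with 2 exons and a longest transcript of 963 bases, and it too overlaps no annotated gene.

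**Figure D2:**
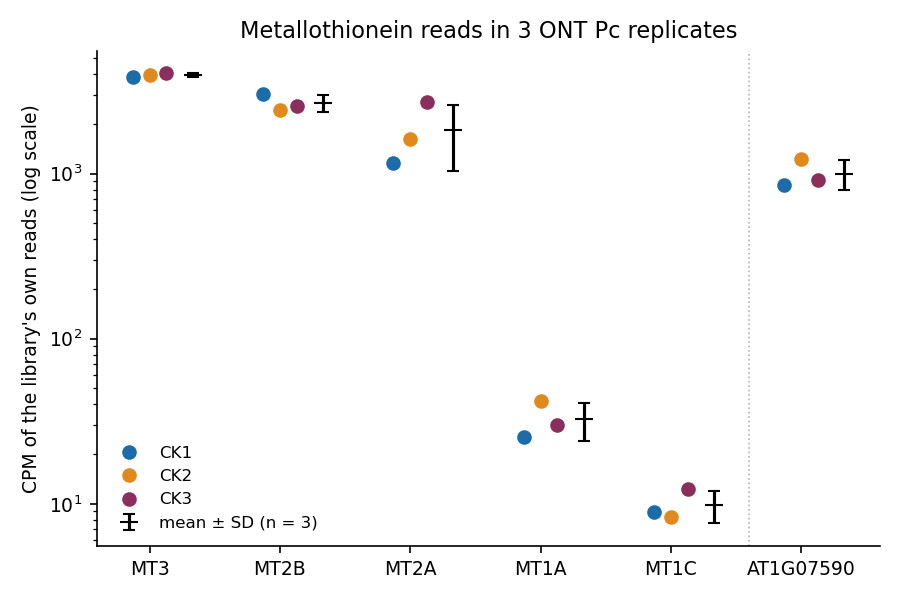
Rescaled CPM (log axis) of the 5 metallothioneins, and of AT1G07590, which overlaps MT1A, in CK1, CK2 and CK3 (points), with a horizontal line for the mean and an error bar for the SD (n = 3). MT3, MT2B and MT2A lie between 1162 and 4047 CPM, and MT1A and MT1C reach at most 42.0 CPM.

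MT2A was the only 1 of the 5 members to pass a 2-fold spread, a share to be read against the 10.4% of all genes with at least 10 reads and the 4.49% of genes averaging at least 100 CPM. Its highest library was 2.32-fold over its lowest, and 96.7% of the genes averaging at least 100 CPM had a narrower spread. Genes past 2-fold with CK3 as the highest library made up 2.64% of that level class. The log2 spread of MT2A was 1.21 with 3 libraries, 0.47 without CK3 and 0.74 without CK1, so MT2A passed 2-fold only where both CK1 and CK3 were kept. Whether what sets CK3 apart in other genes has a part in the MT2A value was not tested.

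**Figure D3:**
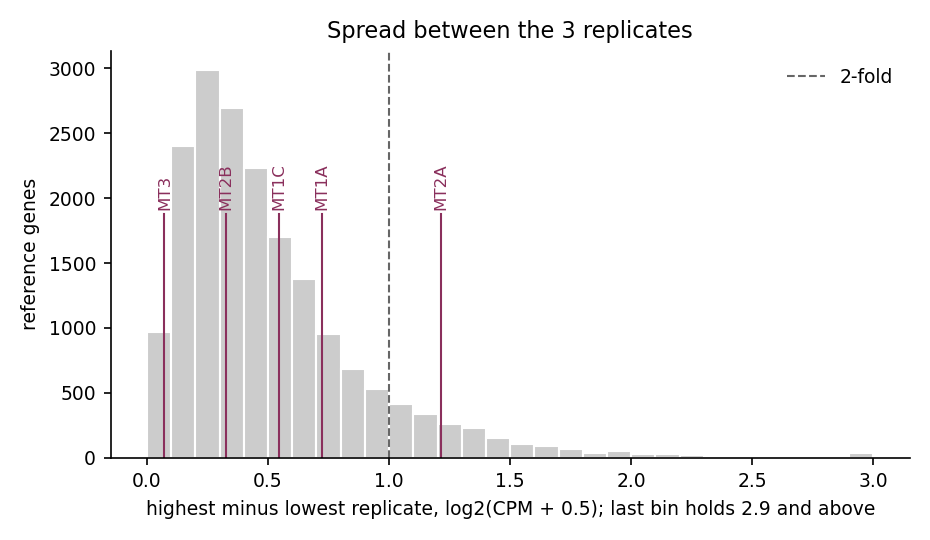
Histogram of the log2 spread between the highest and the lowest library for the reference genes with at least 10 reads in all (x axis in log2 units, y axis in genes, last bin holding the widest genes), with a line for each metallothionein. MT3 at 0.07 lies at the narrow end and MT2A at 1.21 lies beyond the 2-fold limit, with MT2B, MT1C and MT1A between them.

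The balance of the type 2 genes shifted between libraries. The sum of both varied less than MT2A alone, though not less than MT2B alone, and each gene was higher in CK3 than in CK2. MT2A made up 27.6% of the MT2A and MT2B reads in CK1 (95% exact interval 27.2 to 28.1), 39.9% in CK2 (39.4 to 40.5) and 51.3% in CK3 (50.8 to 51.8). The sum of both was 4206 CPM in CK1, 4041 CPM in CK2 and 5257 CPM in CK3. MT2B thus had more reads than MT2A in CK1 and CK2, and fewer in CK3. Within the family, MT3 held 47.6%, 49.3% and 43.3% of the reads in CK1, CK2 and CK3.

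**Figure D4:**
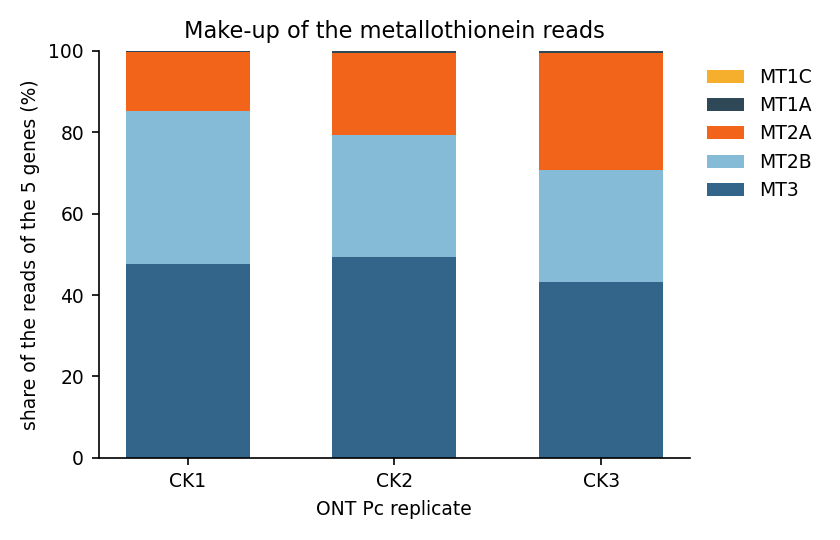
Share of each metallothionein in the reads of the family (y axis, percent) in CK1, CK2 and CK3. The MT2A share is 14.4% in CK1, 20.0% in CK2 and 28.9% in CK3, and the MT2B share is 37.6%, 30.1% and 27.4%.

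The order of the members was compared within each library, over 10 pairs, on log2(CPM + 0.5). With 3 libraries the exact two-sided sign-flip permutation test cannot give a p below 0.25, so no pair could pass a threshold of 0.05. MT3 exceeded MT2B by 0.34, 0.71 and 0.66 on the log2 scale in CK1, CK2 and CK3, a mean of 0.57 ± 0.20 or 1.48-fold (exact permutation p = 0.25, 0.278 after Benjamini-Hochberg adjustment). MT3 exceeded MT2A by a mean of 1.20 ± 0.58, or 2.30-fold, with the same p and the same sign in 3 of 3 libraries. The difference of MT2B over MT2A was 1.39 in CK1, 0.59 in CK2 and -0.08 in CK3, a mean of 0.63 ± 0.73, which did not exceed its spread (exact permutation p = 0.5, adjusted 0.5). Those neighbours in the order cannot be separated by reads, and the other 9 pairs kept 1 sign in 3 of 3 libraries.

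To compare levels per length, the means were also divided by the longest annotated transcript. Per kilobase, MT3 averaged 6104 CPM, MT2B 4688 CPM, MT2A 1895 CPM and MT1C 17.0 CPM. On that scale MT2B exceeded MT2A by a mean log2 difference of 1.39, with the same sign in every library (exact permutation p = 0.25). The lengths used, 963 bases for MT2A and 571 for MT2B, add to this difference. Whether reads rise with transcript length in these libraries was not tested. The scale therefore does not settle the order of MT2A and MT2B. MT1A, at 235 CPM per kilobase, has an annotated transcript of 138 bases that holds the coding sequence alone, so this value does not compare with the rest.

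MT1A, a type 1 gene, had 25.2 CPM in CK1, 42.0 CPM in CK2 and 30.1 CPM in CK3 (205, 310 and 206 reads), or 32.4 ± 8.60 CPM (SD, n = 3), rank 4196. CK2 was the high library, and its exact 95% interval of 37.4 to 46.9 CPM lay above those of CK1 and CK3, which reached 28.9 and 34.5 CPM. MT2A exceeded MT1A by 53.3-fold and MT3 exceeded it by 123-fold on the mean log2 scale.

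The MT1A value is uncertain because of where the gene lies. MT1A is annotated at chr1:2338904-2339321 on the minus strand, inside AT1G07590 at chr1:2336477-2339391 on the same strand. Its whole spliced transcript equals bases 71 to 208 of the 2407-base AT1G07590 transcript, ahead of the AT1G07590 coding sequence, which begins at base 631. Every MT1A base is therefore also an AT1G07590 base, and the table gives no read positions by which the 2 could be divided. AT1G07590, annotated as a tetratricopeptide repeat (TPR)-like protein, had 852 CPM in CK1, 1231 CPM in CK2 and 917 CPM in CK3, or 1000 ± 203 CPM (SD, n = 3), rank 100. CK2 was again the high library, as for MT1A.

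AT1G07590 stood apart from genes with the same annotated product. Of 268 such genes 263 were listed, with a median of 2.40 CPM, and the highest after AT1G07590 was AT3G26580 at 260 CPM. MT1A made up 2.88% of the reads of the pair in CK1 (95% exact interval 2.50 to 3.29), 3.30% in CK2 (2.95 to 3.68) and 3.18% in CK3 (2.77 to 3.64). These intervals overlapped, and a difference in the division between the libraries was not tested. If all AT1G07590 reads were added to MT1A, the sum would be 877, 1273 and 947 CPM in CK1, CK2 and CK3, and the family would take 0.950% ± 0.0685 of reads (SD, n = 3). MT1A would then rank 99 and still lie below MT2A. How many AT1G07590 reads came from MT1A transcripts was not tested.

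**Figure D5:**
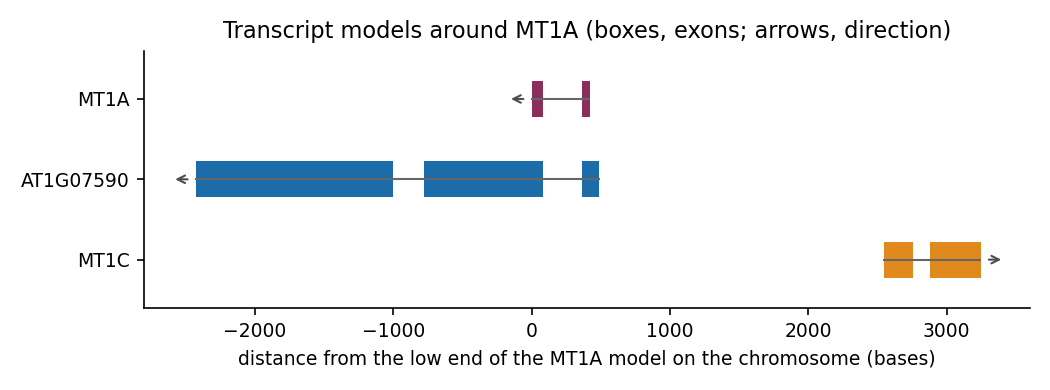
Annotated exons (boxes) and introns (lines) of AT1G07590, MT1A and MT1C, with the x axis in bases from the low end of the MT1A model and arrows for the direction of transcription. Both MT1A exons fall within the exons of AT1G07590, and MT1C lies 2125 bases away on the other strand.

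MT1C, the close relative of MT1A, is at chr1:2341447-2342148 on the plus strand, with 2 exons and a transcript of 577 bases. It had 8.86 CPM in CK1, 8.26 CPM in CK2 and 12.3 CPM in CK3 (72, 61 and 84 reads), or 9.80 ± 2.17 CPM (SD, n = 3), rank 9933. Its exact 95% intervals were 6.94 to 11.2, 6.32 to 10.6 and 9.80 to 15.2 CPM, and the last of these shared only a narrow range with the others. Counting error was therefore a larger part of the MT1C spread than of the MT2A spread. A difference between the libraries in MT1C was not tested. MT1A exceeded MT1C by a mean log2 difference of 1.67 ± 0.54, or 3.17-fold, in 3 of 3 libraries (exact permutation p = 0.25, adjusted 0.278). Both have coding sequences of 138 bases, so the ratio is the same per coding length.

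Of the other family genes only MT1B was listed, and it had few reads. MT1B (AT5G56795), at chr5:22971713-22972690, had 0 reads in CK1, 1 in CK2 and 4 in CK3, and 3 reads, the limit taken for a count of 0, would be 0.369 CPM in CK1. Its annotated reading frame of 51 codons holds 0 cysteine codons, although 86 bases of its transcript match MT1A without a mismatch. MT4A (AT2G42000) and MT4B (AT2G23240), the seed type genes, were not listed in the ONT Pc table. Some genes with 0 reads in every library, such as EM6, were listed, so the absence of MT4A and MT4B is not a count of 0.

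Genes with a profile like each member's were looked for among 205 reference genes averaging at least 500 CPM, by the distance between log2 values centred on their own mean over the 3 libraries. With 3 points such likeness is a description and carries no test. The nearest to MT2A was CCL (CCR-like), at 714 CPM in CK1, 1046 CPM in CK2 and 1587 CPM in CK3, a distance of 0.0984 in log2 units. PCC1 (pathogen and circadian controlled 1) followed with 475, 745 and 1041 CPM, and then AT3G22235 with 730, 1136 and 1374 CPM. All 3 were lowest in CK1 and highest in CK3, as MT2A was, which follows from their choice by nearness to MT2A. Only CCL lay within 0.1 of MT2A. For MT1A the nearest gene was AT1G07590, at a distance of 0.14, ahead of LURP1 at 0.15 and CAT3, a catalase, at 0.19. Every MT1A base is also an AT1G07590 base, so the profiles of that pair cannot be taken as independent. MT1A rested on 205 to 310 reads per library, and the order of these 3 genes was not tested.

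The steadier members had many genes near them. MT3 had 13 genes within 0.1, led by the histone gene AT4G40040, the lipid transfer protein gene LP1 and POM1, a chitinase-like gene of the cell wall. MT2B had 12, led by PGK1 (phosphoglycerate kinase), PSBQA of photosystem II and AT1G21500. The nearest to MT1C were FNR2, a ferredoxin-NADP reductase of the chloroplast, AT5G02160 and AT2G37220, though the few MT1C reads make its profile the least certain.

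The wider set of metal handling genes was read beside the members. Of 68 genes for copper, zinc, iron, phytochelatin and glutathione, 66 were listed, 54 had at least 10 reads, and 6 of these (11.1%) passed 2-fold, close to the 10.4% of all genes. The median log2 spread was 0.39 in the list and 0.41 over all genes. Of the copper genes 0 of 17 passed, and no difference between the lists was tested. The most abundant copper gene was DRT112, a gene for plastocyanin, the copper protein of photosynthetic electron transport, at 6578, 5870 and 6358 CPM. The widest copper gene was COPT2, a copper uptake transporter, at 34.6 CPM in CK1, 32.5 CPM in CK2 and 18.1 CPM in CK3.

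Phytochelatins are glutathione-derived peptides that bind metals beside metallothioneins. PCS1, the phytochelatin synthase, was the only 1 of 5 genes in its list past 2-fold, at 51.7 CPM in CK1, 68.2 CPM in CK2 and 114 CPM in CK3. Its libraries stood in the same order as those of MT2A. Over genes with at least 10 reads, the median log2 shift from CK1 was 0.05 in CK2 and 0.10 in CK3. How many of all genes share this order was not counted. GSH1, the first enzyme of glutathione synthesis and the most abundant of that list, had 160, 135 and 160 CPM.

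Among zinc genes 2 of 14 passed, PCR1 at 75.2, 170 and 98.3 CPM and the transporter ZIP4 at 12.6, 6.36 and 13.5 CPM. PCR1 was also the most abundant and the widest gene of that list, and its high library was CK2. Among iron genes 3 of 18 passed, namely NRAMP4, FER3 and FRO2, each with a different high library. FRO7, the chloroplast ferric reductase and the most abundant iron gene, had 218, 234 and 174 CPM, and FRO2, a ferric reductase best known from roots and the widest, had 12, 3 and 2 reads.

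In the PacBio list, which holds 4091 protein families without read counts or positions, the Metallothionein family named 3 reference transcripts, those of MT2A and MT2B, and 1 PacBio isoform at 1 locus. The list does not pair PacBio loci with reference genes, so the isoform cannot be assigned to either. Of 427 families with 3 reference transcripts, 153 had 0 PacBio isoforms, 81 had 1 and 193 had more. These families were matched on the number of transcripts and not on their length. The authors describe the PacBio library as size-fractionated. Its stated range begins above the longest annotated transcripts of MT2B (571 bases) and MT2A (963 bases). Whether this lowered the number of isoforms was not tested. The family of seed type metallothioneins named 4 reference transcripts of MT4A and MT4B and 0 PacBio isoforms. MT1A, MT1C and MT3 were listed in no family, so for these 3 members the list says nothing on PacBio detection.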

How the data were processed

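The ONT Pc libraries were base-called with Guppy, filtered, overlapped with minimap2, built into consensus sequences with Racon and mapped with GMAP. Counts were estimated with Salmon, and the authors deposited CPM per gene. The submitters' processing notes name TAIR10, and the use of strand is not given in the sources used here. The deposited CPM divide reads by 8122432 in CK1, 15508616 in CK2 and 22343645 in CK3, which are running totals of the libraries. With these divisors 100% of values came out as whole reads (tolerance 0.01 read), and the values were rescaled to each library's own reads. For PacBio, isoforms were clustered, polished and deposited as a list by protein family, with no measurement. No column of per-sample values was set aside (0 columns).

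With 1 group there was no differential test and no count model. Spread is the highest over the lowest library on log2(CPM + 0.5), for genes with at least 10 reads in all. Pairs of members were compared by flipping signs in an exact, two-sided permutation test, with Benjamini-Hochberg adjustment over 10 pairs. Exact intervals are Clopper-Pearson intervals at 95%. Named genes were the members, MT1B, MT4A, MT4B, overlapping genes, the most abundant and the widest gene of each list, and for each member the 3 genes of nearest profile. The other genes named in the zinc and iron lists, EM6 and AT3G26580 were chosen after their values were seen. The members and lists were chosen with earlier results of these data known. Coordinates and sequences are from RefSeq TAIR10.1. The recovery of reads, the spread and the nearest profile were tested on simulated counts with running divisors and planted changes. The simulation held counting error only and no variation between replicates, so it cannot judge the spread between these libraries. Alternatives were deposited CPM, other filters, scalings and pseudocounts, leaving out each library and, added after the data were seen, AT1G07590 reads counted as MT1A. The software was Biopython 1.88, matplotlib 3.10.9, scipy 1.17.1, pandas 2.3.3 and numpy 2.4.6 under Python 3.11.15.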

Additional observations from a re-analysis of the deposited data

How the results depend on the processing

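No pair of members changed direction in 70 combinations of pair and alternative, but some could not have: deposited CPM scale all genes of a library alike, and adding AT1G07590 leaves pairs without MT1A as they were. The family's share was 0.850% of reads, 0.493% with CPM as deposited and 0.950% with AT1G07590 added to MT1A, the alternative chosen after the data were seen. The deposited CPM, whose divisors grow from CK1 to CK3, gave log2 spreads of 1.64 for MT3, 1.96 for MT2B, 0.60 for MT2A, 1.40 for MT1A and 1.14 for MT1C, against 0.07, 0.33, 1.21, 0.72 and 0.55 after rescaling. They also put 15311 reference genes and 50 metal handling genes past 2-fold, against 1919 and 6. Leaving out 1 library at a time gave spreads of 0.028 to 0.072 for MT3, 0.077 to 0.33 for MT2B, 0.47 to 1.21 for MT2A, 0.25 to 0.72 for MT1A and 0.10 to 0.55 for MT1C. The lowest value came without CK1 for MT3 and MT2B, without CK2 for MT1A and without CK3 for MT2A and MT1C. The counts past 2-fold were then 781 to 1016 reference genes and 2 to 3 metal handling genes, as fewer libraries give a narrower range. A minimum of 100 reads gave 833 reference genes of 13262 tested, and a pseudocount of 1 gave 1215 reference genes and 4 metal handling genes. Median-of-ratios scaling, which removes a median log2 shift of 0.10 between CK3 and CK1, gave a log2 spread of 1.10 for MT2A, still past 2-fold. Members were compared in pairs within each library, and no comparison between groups was possible because the ONT Pc libraries formed 1 group. MT1C rested on 61 to 84 reads per library, and 3 libraries allow no exact permutation p below 0.25.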

Other observations

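A list of 12 leaf senescence genes, read because metallothioneins are known from ageing leaves, was less even between libraries than the metal handling list. All 12 were listed, 11 had at least 10 reads, and 7 of these passed a 2-fold spread, against 10.4% of all genes tested. Those 11 also had at least 100 reads each, a class in which 6.28% of reference genes passed. The list was chosen with earlier results of these data known, so the contrast is a description and was not tested. The list summed to 253 CPM in CK1, 404 CPM in CK2 and 445 CPM in CK3. Of the 7 genes, 4 were highest in CK3, 2 in CK2 and 1 in CK1, beside 854 of 1919 with CK3 highest among all genes past 2-fold. SEN1, the most abundant of the list, had 50.6, 78.8 and 123 CPM in CK1, CK2 and CK3. WRKY53, a transcription factor of early leaf senescence and the widest gene of the list, had 9.36, 47.4 and 66.6 CPM, a 6.80-fold spread. SAG13 was lowest in CK3, with 35.3 CPM in CK1, 34.8 CPM in CK2 and 8.92 CPM in CK3, and SAG12, the usual marker of late senescence, had 0, 1 and 0 reads. The choice of SAG13 and SAG12 as examples was made with their values in view. The libraries of SEN1 and WRKY53 stood in the same order as those of MT2A, and a relation between them was not tested because 3 libraries are too few. The share of all genes with that order was not counted.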
